A study of Rattus norvegicus with 24 samples.

Results

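The comparison described here was between the saline controls of 2 rat generations: RNA from the nucleus accumbens (NAc) of 4 F2 SAL pups was set against that of 4 F1 SAL pups, all at postnatal day 14 (P14). These 8 libraries were chosen by their labels from the 24 of the series, and the genes were those with at least 1 FPKM in 4 or more of the 8 libraries, with Y-linked genes left aside. Of 23950 genes in the files, 13706 met this rule, 11708 of them autosomal by name, 377 X-linked and 1621 with no position in the reference used. FPKM are fragments per kilobase of transcript scaled to the depth of the library, so a level can be compared between genes.

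The pups were Sprague Dawley rats. F1 SAL pups were born to F0 dams of the saline arm of a study of the opioid oxycodone (oxy), and F2 SAL pups to F1 females of that arm, left untreated and mated with males naive to the experiment. The other 16 libraries held pups of the postnatal (PNO) and in utero (IUO) oxy lineages in the same 2 generations, 4 libraries a group. The 4 libraries of a group came from different litters. The saline schedule of the dams, the sex of each pup and the sequencing date were not given in the sources used here, and pups of either sex had been picked at random. Since none of these pups descended from an animal given oxy, the comparison asks how far control tissue of the 2 generations differed.

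The NAc is the ventral part of the striatum and a center of reward and motivation. Most of its neurons are GABAergic spiny projection neurons, which carry D1 or D2 dopamine receptors and make the peptides dynorphin, substance P or enkephalin. The region borders on the septum and lies near the ventricles and cortex, so a dissection can take in tissue around it, and at P14 the neurons and myelin are still maturing. In bulk tissue such as this, fewer cells of a type and less RNA per cell cannot be told apart.

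Projection neuron markers were present in all 8 libraries. Ppp1r1b, the DARPP-32 phosphatase inhibitor of projection neurons, was at 206.69, 488.74, 549.36 and 389.37 FPKM in F1 SAL and at 471.97, 447.22, 400.35 and 361.04 FPKM in F2 SAL. One library stood apart. In F1 SAL replicate 1 the choroid plexus list summed to 5367 FPKM, of which Ttr (transthyretin, the main secreted protein of that tissue) gave 5121 FPKM, against sums of 17.5 to 107 FPKM in the other 7 libraries. The same library had the lowest sum of projection neuron markers, 893 FPKM against 1252 to 2134 FPKM in the other 7. The sum of meningeal genes ranged from 74.1 to 1050 FPKM in F1 SAL and from 209 to 1130 FPKM in F2 SAL, and the groups overlapped in it.

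**Figure D1:**
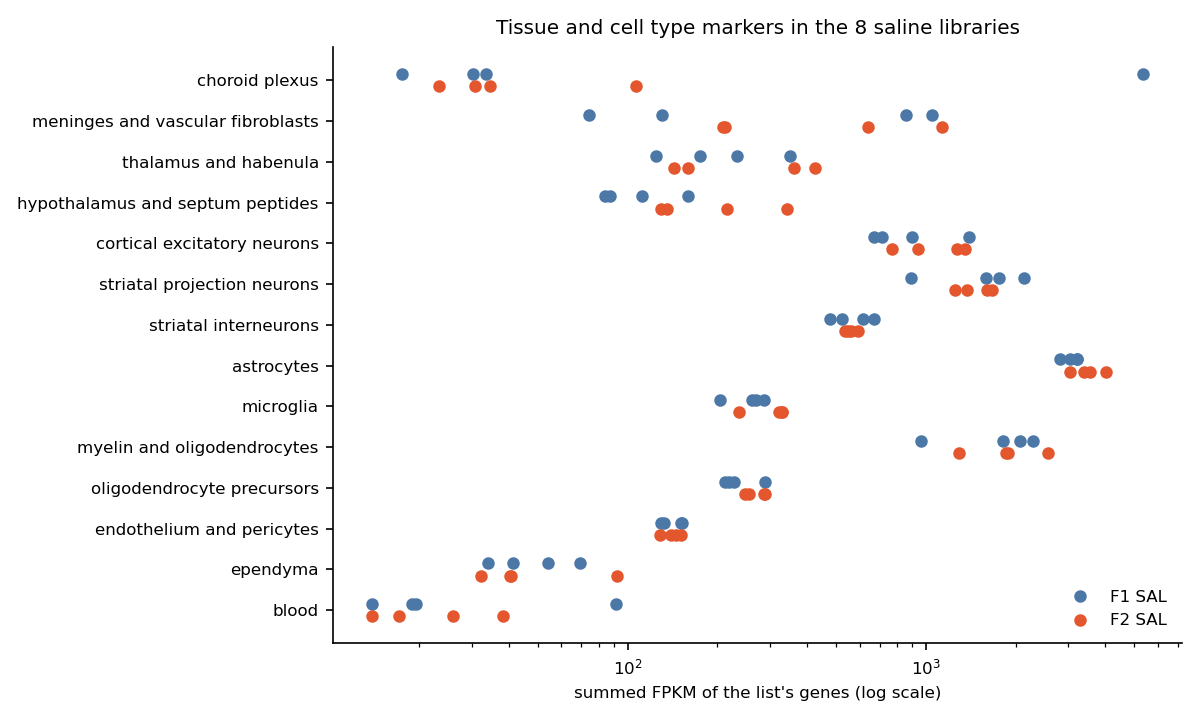
Summed FPKM of marker genes for 14 tissues and cell types in the 8 saline libraries, on a log axis, with 1 point per library, blue for F1 SAL and red for F2 SAL. The 2 colors overlap on every line, and the lone blue point at 5367 FPKM on the choroid plexus line is F1 SAL replicate 1.

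Genes of the Y chromosome split the saline libraries exactly by generation. Kdm5d, a Y-linked histone demethylase, was at 4.98, 5.85, 6.84 and 5.01 FPKM in F1 SAL and at 0.17, 0, 0.49 and 0.12 FPKM in F2 SAL. Eif2s3y, a Y-linked translation factor subunit, was at 19.44, 19.52, 15.77 and 14.10 FPKM in F1 SAL and at 0.48, 0, 1.39 and 0.82 FPKM in F2 SAL. All 4 F1 SAL libraries were high and all 4 F2 SAL libraries low, with no overlap. The other lineages were mixed, with Kdm5d at 3 FPKM or more in 2 F1 PNO, 1 F2 PNO, 1 F1 IUO and 3 F2 IUO libraries. In the saline arm, generation and Y-linked level therefore cannot be told apart (correlation of the mean Y-linked log2 level with generation, -0.956 over 8 libraries, all of the 2 groups compared). Every difference below is one between 4 Y-high F1 pups and 4 Y-low F2 pups. As the sex of the pups was not given, a difference of sex cannot be told apart from one of generation either.

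At a false discovery rate of 5%, the saline generations differed in 2 of 13706 genes (0.0146%), neither of which had a position in the reference. A looser rule asked for an unadjusted p under 0.05 together with means at least 2-fold apart, and 67 genes met it (0.489%), 34 higher (0.248%) and 33 lower (0.241%) in F2 SAL. This rule sets no limit on false calls, so its genes are given as a description. Without regard to size, 1262 genes had an unadjusted p under 0.05 (9.21%), 575 higher (4.2%) and 687 lower (5.01%) in F2 SAL, a split that became 433 higher and 922 lower after upper-quartile rescaling. The FPKM of the 2 groups did not overlap in 735 genes (5.36%). Values are from limma on log2(FPKM + 0.1), a scale that understates the change of low genes, with Benjamini-Hochberg adjustment. The 2-fold count moved to 117 without F2 SAL replicate 3 and stayed between 64 and 99 without any other library. With the Y-linked level as a covariate in the 8 libraries it was 22, but there that level nearly equals generation, so the fit cannot separate them. A fit of all 24 libraries gave 44 without the covariate and 24 with it. The fits with the covariate and those of all 24 libraries had no gene at an adjusted p under 0.05. Those with 1 library left out had 2 to 4 by limma.

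The genes past the 2-fold rule were mostly not standard protein-coding entries. Of the 67, 18 were named by an RNA family, 23 by a genomic clone and 12 by a LOC or RGD placeholder, which left 14 with other symbols (20.9%, against 87.4% of all genes tested). They were also low, with 40 of 67 (59.7%) under 5 FPKM on average in both groups, against 31.8% of all genes tested. A value of 0 in at least 1 of the 8 libraries occurred in 15 of them (22.4%, against 1.23%).

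Both genes past the adjusted threshold were entries listed at 0 in 1 generation. LOC108348055, annotated as a B9d1 protein (a component of the ciliary transition zone), was at 0, 0.05, 0 and 0 FPKM in F1 SAL and at 12.02, 13.28, 8.82 and 8.09 FPKM in F2 SAL (adjusted p = 2.44e-05). LOC100911456, annotated as migration and invasion-inhibitory protein, was at 4.06, 3.23, 3.62 and 4.11 FPKM in F1 SAL and listed at 0 in the 4 F2 SAL libraries (adjusted p = 0.000505). Neither passed the adjusted threshold in the fit of all 24 libraries, whose lowest adjusted p was 0.188.

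In the other lineages LOC108348055 varied within groups. It was listed at 0 in 2 of 4 F1 PNO, 1 of 4 F2 PNO, 3 of 4 F1 IUO and 1 of 4 F2 IUO libraries, and was between 7.37 and 16.38 FPKM elsewhere. LOC100911456 was at 3.5, 3.2, 0 and 2.67 FPKM in F1 PNO and listed at 0 in all 4 F2 PNO libraries, the saline direction (limma unadjusted p = 0.00802, adjusted p = 0.937), whereas in IUO it was listed at 0 in 2 of 4 libraries of each generation. The gene B9d1, whose protein LOC108348055 is annotated with, was at 9.99, 8.44, 13.42 and 13.39 FPKM in F1 SAL and at 10.71, 11.89, 8.15 and 8.20 FPKM in F2 SAL. Its groups overlapped, as did those of Miip, the named gene of the second protein, at 2.55 to 3.40 FPKM in F1 SAL and 2.95 to 4.03 FPKM in F2 SAL. How reads were divided between such near-identical entries was not given in the sources used here, so their values are uncertain.

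The same on and off pattern was found in LOC103689986, Zfp622 and Romo1. LOC103689986 was at 10.44, 7.64, 8.36 and 11.25 FPKM in F1 SAL and at 0, 0, 0 and 10.89 FPKM in F2 SAL. Zfp622, a zinc finger protein of ribosome assembly, was at 3.66, 6.76, 7.46 and 6.43 FPKM in F1 SAL and at 3.55, 0, 0 and 0 FPKM in F2 SAL. Romo1, a small protein of the inner mitochondrial membrane, was at 101.74, 89.12, 0 and 0 FPKM in F1 SAL and at 153.23, 215.47, 96.95 and 115.05 FPKM in F2 SAL. Among the other lineages Zfp622 was listed at 0 in 1 F2 PNO library and Romo1 in 1 F1 PNO library, so in these 24 libraries Zfp622 was listed at 0 in F2 libraries and Romo1 in F1 libraries, in saline and PNO. Whether a 0 marks absence of the RNA or a missing estimate was not tested.

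**Figure D2:**
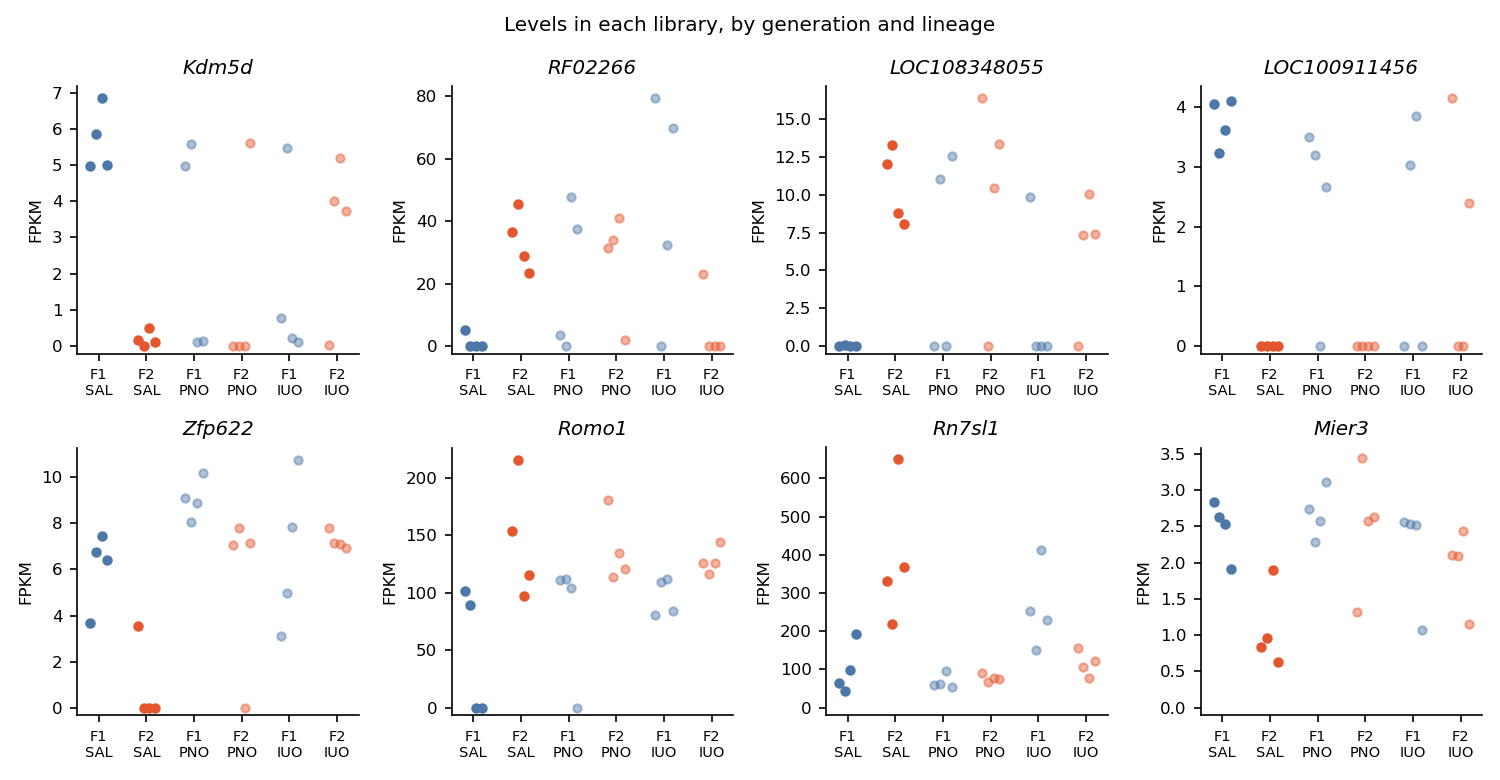
FPKM of 8 genes in each of the 24 libraries, with 1 point per library in 6 groups of 4, blue for F1, red for F2 and paler for the PNO and IUO lineages. Kdm5d separates the saline generations with no saline library between 0.49 and 4.98 FPKM, LOC108348055 and LOC100911456 switch between 0 and their upper level in several groups, and Rn7sl1 is high in F2 SAL and in F1 IUO.

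In saline, a pair of entries ran opposite to the Y-linked genes. RF02266, an entry named by its RNA family, was at 5.18, 0, 0 and 0 FPKM in F1 SAL and at 36.60, 45.53, 28.95 and 23.47 FPKM in F2 SAL. Over the 24 libraries it was at 22.99 FPKM or more in every library with low Kdm5d and at 5.18 FPKM or less in the 11 with high Kdm5d. AABR07039356.2 was at 3.25, 0, 0 and 0.12 FPKM in F1 SAL and at 20.48, 19.20, 20.71 and 9.54 FPKM in F2 SAL, but at 1.12 FPKM in 1 F2 PNO library with Kdm5d at 0. Of the fits that left out 1 library, only that without F1 SAL replicate 1 put either past the adjusted threshold, and it did so for both.

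X-linked genes were shifted towards lower values. Of 377 tested, 43 had an unadjusted p under 0.05 (11.4%), 38 of them lower in F2 SAL (10.1%), against 9.21% and 5.01% of all genes, and the median log2 difference was -0.093 against -0.0104 over all genes. None passed the 2-fold rule by limma, none had an adjusted p under 0.05, and 4 were past 1.5-fold (1.06%, against 1.02% of autosomal genes). Gria3, an X-linked subunit of AMPA receptors, was at 27.10, 19.31, 21.45 and 29.45 FPKM in F1 SAL and at 20.13, 8.75, 17.92 and 15.37 FPKM in F2 SAL, a 1.57-fold lower mean with overlapping groups (exact permutation p = 0.0571, limma adjusted p = 0.527). Zfp182, Xiap (an inhibitor of apoptosis) and Ints6l were the other 3, all lower in F2 SAL by 1.55-fold to 1.57-fold.

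On the autosomes, 17 of 11708 genes passed the 2-fold rule (0.145%), 7 higher (0.0598%) and 10 lower (0.0854%) in F2 SAL. No autosomal gene had an adjusted p under 0.05 by limma (1 did without F2 SAL replicate 1, Zfp622), and 1006 had an unadjusted p under 0.05 (8.59%). By contrast, 50 of the 1621 genes with no position passed the 2-fold rule (3.08%). The autosomal count rose to 32 without F2 SAL replicate 3 and was 14 to 25 without any other library. In a fit of all 24 libraries it was 11, and 7 with the Y-linked level as a covariate. In the 8 libraries, where that level nearly equals generation, the covariate also gave 7, and the estimates of Mier3, Mustn1 and Psors1c2 changed sign. The groups of 7 of the 17 did not overlap, against 5.3% of all autosomal genes. The 17 were picked on these same values, so a share above that of all genes was built in. An unadjusted p under 0.05 was kept by 7 of the 17 in all 8 fits that omitted 1 library. They were Rn7sl1, Zfp622, Mier3, Hes7, Mustn1, Uchl3 and Mir22.

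The most abundant of the 17 was Rn7sl1, a gene of 7SL RNA, the RNA core of the signal recognition particle that brings secreted proteins to the endoplasmic reticulum. It was at 63.16, 43.85, 97.36 and 192.92 FPKM in F1 SAL and at 331.55, 217.52, 650.43 and 368.19 FPKM in F2 SAL. Every F2 SAL library was above every F1 SAL library, with a 3.95-fold higher mean (log2 difference 2.09, SE 0.46, exact permutation p = 0.0286, limma adjusted p = 0.527). An entry of the same family, RF00017, was at 9 to 31.14 FPKM in F1 SAL and 37.83 to 116.67 FPKM in F2 SAL. Of 19 entries of the family in the files 7 were tested, 3 passed the 2-fold rule as higher (background 0.248%), and the median log2 difference was 1.98. The family was chosen after values were seen, so its share is a description only.

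Rn7sl1 did not differ in this way between generations in the other lineages. It was at 53.24 to 94.62 FPKM in F1 PNO and 65.7 to 89.76 FPKM in F2 PNO, and at 151.84 to 411.25 FPKM in F1 IUO and 77.05 to 156.52 FPKM in F2 IUO. The generation difference in SAL less the mean of those in PNO and IUO was 2.54 on the log2 scale (SE 0.46, unadjusted p = 1.5e-05). That was the smallest p of all genes for this difference, with an adjusted p of 0.206 by limma.

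Other small RNAs moved in both directions. Their families were also chosen after values were seen, so the shares are a description only. Over all 175 tested entries named by an RNA family, 15 were higher and 13 lower at an unadjusted p under 0.05. Their median log2 difference was -0.0897. 7SK RNA, which holds the elongation factor P-TEFb inactive, had 4 of 7 tested entries higher in F2 SAL at an unadjusted p under 0.05 (background 4.2%), with a median log2 difference of 0.785. One of them, RF00100, was at 1.58, 0.7, 2.48 and 1.12 FPKM in F1 SAL and at 3.61, 3.52, 11.31 and 7.54 FPKM in F2 SAL. SNORD113 and SNORD114, small nucleolar RNAs of an imprinted cluster, had 4 of 11 tested entries lower (background 5.01%), with a median of -0.72, and their sum over all entries was 36.3 to 79.8 FPKM in F1 SAL and 13.0 to 37.4 FPKM in F2 SAL. The U6 spliceosomal RNA had none of 5 entries past that p by limma, and its median was -0.307. These RNAs are short and often lack a poly(A) tail, and whether libraries were selected for poly(A) was not given in the sources used here.

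Apart from Romo1, the protein-coding genes higher in F2 SAL on autosomes had levels up to 15.83 FPKM, the highest being a library of LOC100361259. Hes7, a repressor of the Hes family known from somite segmentation, was at 1.61, 1.27, 2.71 and 1.42 FPKM in F1 SAL and at 4.48, 2.42, 3.03 and 4.83 FPKM in F2 SAL, 2.11-fold higher on average with 1 F1 SAL library inside the F2 SAL range (exact permutation p = 0.0571, limma adjusted p = 0.527). Mustn1, a small nuclear protein of the musculoskeletal system, was at 2.77, 2.11, 2.79 and 3.34 FPKM in F1 SAL and at 5.72, 11.13, 3.59 and 4.86 FPKM in F2 SAL, 2.30-fold higher with no overlap. Psors1c2 and LOC100361259, annotated as ribosomal protein L13, were 2.29-fold and 2.38-fold higher with overlapping groups. Surf4, a cargo receptor of the endoplasmic reticulum, was at 0.88, 9.11, 10.64 and 1.19 FPKM in F1 SAL and at 10.06 to 12.05 FPKM in F2 SAL, so that 2 F1 SAL libraries set its difference.

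Of the genes lower in F2 SAL, Mier3, a subunit of histone deacetylase complexes, was at 2.84, 2.63, 2.54 and 1.91 FPKM in F1 SAL and at 0.84, 0.96, 1.90 and 0.63 FPKM in F2 SAL. It was 2.29-fold lower, with the highest F2 SAL library just under the lowest F1 SAL library (exact permutation p = 0.0286, limma adjusted p = 0.527). In the PNO and IUO lineages its log2 generation differences were -0.16 and -0.12, with unadjusted p of 0.587 and 0.741 by limma. Pdgfc, a platelet-derived growth factor, was at 1.51, 1.47, 4.35 and 3.90 FPKM in F1 SAL and at 1.14 to 1.37 FPKM in F2 SAL, and Car12, a membrane carbonic anhydrase, at 7.03, 2.11, 2.02 and 2.26 FPKM in F1 SAL and 1.31 to 1.75 FPKM in F2 SAL. The high Car12 value was in F1 SAL replicate 1, the library rich in choroid plexus genes, and without it the log2 difference was -0.466 in place of -0.886, a difference under 2-fold but still at an unadjusted p under 0.05. An entry named Uchl3, a deubiquitinase, was at 13.63, 20.53, 15.57 and 15.07 FPKM in F1 SAL and at 3.13, 15.79, 6.47 and 3.15 FPKM in F2 SAL. The files hold a further entry of that name, whose level was 15.93 to 20.11 FPKM in F1 SAL and 16.03 to 23.09 FPKM in F2 SAL. RGD1359290 (a ribosomal L22 domain protein), Vkorc1l1 (a vitamin K epoxide reductase) and AABR07011951.1, annotated as a heat shock cognate protein, were the remaining protein entries, and each had 1 or 2 F2 SAL libraries in or near the F1 SAL range.

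**Figure D3:**
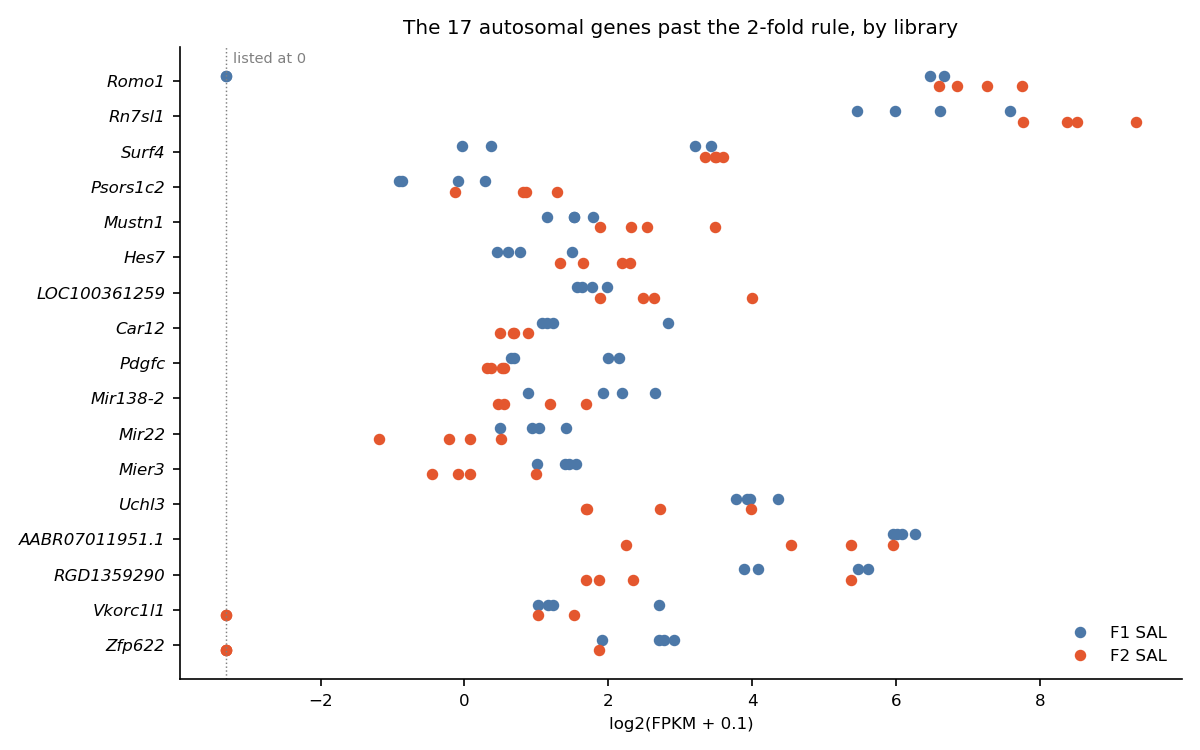
Levels of the 17 autosomal genes past the 2-fold rule on the log2(FPKM + 0.1) scale, with 1 point per saline library, blue for F1 SAL and red for F2 SAL, and a dotted line where a value of 0 falls. In 7 genes the colors do not overlap, and in Romo1, Zfp622 and Vkorc1l1 some libraries are listed at 0.

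A pair of microRNA genes was lower in F2 SAL. The mature RNAs cut from their hairpins are printed here from RefSeq (GRCr8), both genes having matched by symbol, with the seed that pairs with targets (bases 2 to 8) in capitals. The 4 mature RNAs have 4 different seeds.
rno-miR-22-3p: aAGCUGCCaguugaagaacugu
rno-miR-22-5p: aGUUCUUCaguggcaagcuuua
rno-miR-138-5p: aGCUGGUGuugugaaucaggccg
rno-miR-138-2-3p: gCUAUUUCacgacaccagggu

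Mir22 was at 1.95, 1.31, 2.55 and 1.82 FPKM in F1 SAL and at 0.76, 1.32, 0.96 and 0.34 FPKM in F2 SAL, a 2.26-fold lower mean, with 1 library of each group inside the other's range (exact permutation p = 0.0571, limma adjusted p = 0.527). Mir138-2 was at 1.75, 3.72, 4.46 and 6.18 FPKM in F1 SAL and at 3.14, 2.18, 1.37 and 1.28 FPKM in F2 SAL, a 2.02-fold lower mean with overlapping groups (exact permutation p = 0.114, limma adjusted p = 0.534). These FPKM are listed for the hairpin gene, and the RNA sizes kept in the libraries were not given in the sources used here. They are therefore no measure of the mature microRNA.

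Below the 2-fold line, several genes of well annotated proteins separated the generations more cleanly. Taok1, a kinase of the MAP kinase and microtubule pathways, was at 8.09, 6.38, 6.50 and 7.91 FPKM in F1 SAL and at 4.09, 4.01, 4.8 and 3.66 FPKM in F2 SAL, 1.74-fold lower with no overlap (limma adjusted p = 0.47). Wapl, which releases cohesin from chromatin, was at 4.89 to 5.73 FPKM in F1 SAL and 3.42 to 3.60 FPKM in F2 SAL. Ranbp2, a nuclear pore protein, was at 6.17 to 8.96 FPKM in F1 SAL and 4.17 to 5.2 FPKM in F2 SAL. In the other direction, Fscn1, the actin bundling protein fascin, was at 38.64 to 55.72 FPKM in F1 SAL and 61.87 to 75.29 FPKM in F2 SAL, and Scarf1, a scavenger receptor, at 1.56 to 1.68 FPKM in F1 SAL and 2.39 to 3.38 FPKM in F2 SAL. These were among the 12 autosomal genes of smallest p, chosen after their values were seen. In the IUO lineage, which shares no library with the saline arm, Taok1 and Wapl were also lower in F2, by log2 differences of -1.38 and -0.816 (limma unadjusted p = 0.000543 for Taok1 and unadjusted p = 0.00459 for Wapl). In PNO the differences were -0.14 and -0.317 (limma unadjusted p = 0.846 and unadjusted p = 0.462). Scarf1 had differences of the opposite sign, -1.11 in PNO and -0.411 in IUO, Fscn1 differed by -0.146 and 0.0768, and Ranbp2 by -0.166 and -0.598.

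Gene lists for the cells and functions of the NAc showed no member past the adjusted threshold by limma, in any of the 32 lists with a gene tested, and 17 lists had no gene at an unadjusted p under 0.05 either. Markers of spiny projection neurons were among the latter, with 0 of 20 past that p and a median log2 difference of -0.108, which ranged from -0.301 to 0.0758 with 1 library left out (the latter without F1 SAL replicate 3). Drd2 was at 19.16, 38.34, 69.19 and 39.98 FPKM in F1 SAL and at 44.24, 43.18, 27.30 and 27.76 FPKM in F2 SAL. Penk, the enkephalin precursor, was at 116.4 to 321.8 FPKM and 156.58 to 250.06 FPKM, and Pdyn, the dynorphin precursor, at 20.43 to 60.99 FPKM and 26.84 to 54.19 FPKM, in F1 SAL and F2 SAL respectively. The groups overlapped in each, and F1 SAL replicate 1 had the lowest level of all 3. Striatal interneurons (0 of 15, median 0.285) and opioid receptors and peptides (0 of 6, median -0.129) likewise had no member past that p, and Sst, the somatostatin of a class of interneurons, was at 248.88 to 462 FPKM in F1 SAL and 257.3 to 344.94 FPKM in F2 SAL.

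GABA-A receptors, which carry fast inhibition, leaned lower. Of 13 GABA-A receptor subunits, 5 were lower in F2 SAL at an unadjusted p under 0.05 (background 5.01%) and none higher, with a median log2 difference of -0.259. Between F2 and F1 of the other lineages their median was -0.412 in PNO and -0.402 in IUO, against -0.0588 and -0.0775 for all genes. Most of these genes are long, and values for genes of similar length are given below. Gabra2 was at 15.08, 13.64, 14.32 and 14.81 FPKM in F1 SAL and at 9.54, 12.30, 12.63 and 9.37 FPKM in F2 SAL, 1.32-fold lower with no overlap (limma adjusted p = 0.527). Gabrb2, Gabrg3 and Gabra3 were 1.30-fold to 1.5-fold lower with overlapping groups. Of 22 glutamate receptor subunits only Gria3 passed that p, a share near the background, and the median was -0.113. Of 14 dopamine and monoamine receptors only Htr2c did, a serotonin receptor at 35.63, 25.54, 39.89 and 29.64 FPKM in F1 SAL and 21.60, 23.68, 23.06 and 19.32 FPKM in F2 SAL, 1.49-fold lower with no overlap, and the median of that list was 0.000187.

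Genes of ribosomes and of the respiratory chain leaned higher. Of 35 cytosolic ribosomal protein genes, 30 had a difference above 0, against 6598 of all 13706 genes. At an unadjusted p under 0.05, 5 were higher (background 4.2%), and the median log2 difference was 0.208. Shares for genes of similar length are given below. Rps2 was at 203.28, 243.88, 366.75 and 337.60 FPKM in F1 SAL and at 562.78, 600.10, 372.62 and 411.55 FPKM in F2 SAL, 1.69-fold higher with no overlap (exact permutation p = 0.0286, limma adjusted p = 0.527). Rps21 was 1.57-fold and Rpl38 1.93-fold higher with overlapping groups. LOC685963, whose annotated protein is also L38, went the other way, at 347.29, 202.99, 313.29 and 165.53 FPKM in F1 SAL and 132.99, 110.58, 104.24 and 73.89 FPKM in F2 SAL, and since it carries far more of the signal than Rpl38 the direction of that protein's RNA is uncertain. Of 31 nuclear genes of the respiratory chain, 5 were higher and 1 lower at that p, with a median of 0.144. They were Ndufb7, Cox5b, Ndufv1, Cox5a and Cox6a1, higher by 1.15-fold to 1.36-fold, and Ndufs6, 1.44-fold lower. The ribosomal median was 0.0858 without F2 SAL replicate 2 and 0.323 without F2 SAL replicate 3, and that of the respiratory chain 0.0622 and 0.27. Between F2 and F1 of the other lineages, the ribosomal median was 0.224 in PNO and 0.261 in IUO. That of the respiratory chain was 0.0295 in PNO and 0.38 in IUO. The 13 genes of the mitochondrial genome had a median of -0.114 and none past that p by limma. With the Y-linked level as a covariate in the fit of 24 libraries, the medians were -0.036 for GABA-A receptors, 0.114 for ribosomal proteins and 0.0436 for the respiratory chain. In the 8 libraries, where that level nearly equals generation, all 3 changed sign.

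Glia showed small shifts. Of 14 microglial genes, 13 had a difference above 0 (median 0.257), against 6598 of all 13706 genes. None of the 14 had an unadjusted p under 0.05. C1qb, a complement component, was at 29.86 to 51.30 FPKM in F1 SAL and 39.05 to 62.58 FPKM in F2 SAL. Among astrocyte genes, Apoe, the main lipid carrier of the brain, was at 1156 to 1541 FPKM and 1521 to 1989 FPKM, 1.24-fold higher, and Slc1a2, the glutamate transporter, was 1.48-fold lower, both at an unadjusted p under 0.05 with overlapping groups (limma adjusted p = 0.538). Olig1, a transcription factor of the oligodendrocyte lineage, was at 57.43, 61.86, 86.34 and 62.44 FPKM in F1 SAL and at 103.63, 76.97, 85.19 and 113.34 FPKM in F2 SAL, 1.41-fold higher. Mbp, the myelin basic protein gene, was at 405.13 to 955.96 FPKM and 581.43 to 1226 FPKM, and none of 18 myelin genes passed that p.

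Lists of activity, stress, imprinted, clock, hypoxia, MHC and cortical genes had 0 to 2 members each past that p, against 9.21% of all genes. Klf2, a Krueppel-like factor of endothelium and among the immediate early genes, was at 15.03, 10.42, 13.04 and 10.75 FPKM in F1 SAL and at 20.20, 12.18, 21.09 and 31.77 FPKM in F2 SAL, 1.73-fold higher with overlap (limma adjusted p = 0.527), the only one of 21 such genes at an unadjusted p under 0.05. Hspb1, a small heat shock protein, was at 5.22, 3.59, 5.32 and 2.89 FPKM and at 7.41, 8.60, 4.45 and 9.11 FPKM, 1.74-fold higher with overlap (limma adjusted p = 0.527), the only one of 17. None of 15 glucocorticoid response genes passed it. Of 19 imprinted genes Ube3a was 1.41-fold lower and 1 of 2 Gnas entries 1.21-fold higher. Of 18 clock genes Ciart was 1.5-fold lower, of 12 hypoxia genes Ddit4 was 1.18-fold higher and P4ha1 1.28-fold lower, and of 11 rat MHC genes RT1-DMa was 1.37-fold higher. Cux2, of upper cortical layers, was the 1 of 14 cortical markers past that p, 1.48-fold higher.

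The lists for neighboring tissue and other cell types had no further member past that p. Their median log2 differences were 0.482 for cortical neurons, 0.266 for thalamus and habenula, 0.214 for hypothalamic and septal peptides, 0.000495 for meninges, -0.0386 for endothelium, -0.127 for ependyma, -0.33 for the 2 blood genes tested and -0.683 for choroid plexus. The choroid plexus median was 0.0518 without F1 SAL replicate 1. Others also changed sign with 1 library left out: cortical neurons ranged from -0.102 (without F1 SAL replicate 3) to 0.685, thalamus from -0.189 (without F2 SAL replicate 3, and below 0 also without F2 SAL replicate 4 or F1 SAL replicates 3 or 4) to 0.58, meninges from -0.372 (without F1 SAL replicate 3) to 0.298, ependyma from -0.424 to 0.0359 (above 0 without F1 SAL replicate 3 or F2 SAL replicate 4), endothelium from -0.0812 to 0.0528 (above 0 without F1 SAL replicates 1 or 2 or F2 SAL replicate 2) and blood from -0.682 to 0.277 (without F1 SAL replicate 4). Genes of early and late neuron maturation had medians of 0.0241 and 0.0288, close to the -0.0104 of all genes. The part of tissue content in single-gene differences was not tested.

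**Figure D4:**
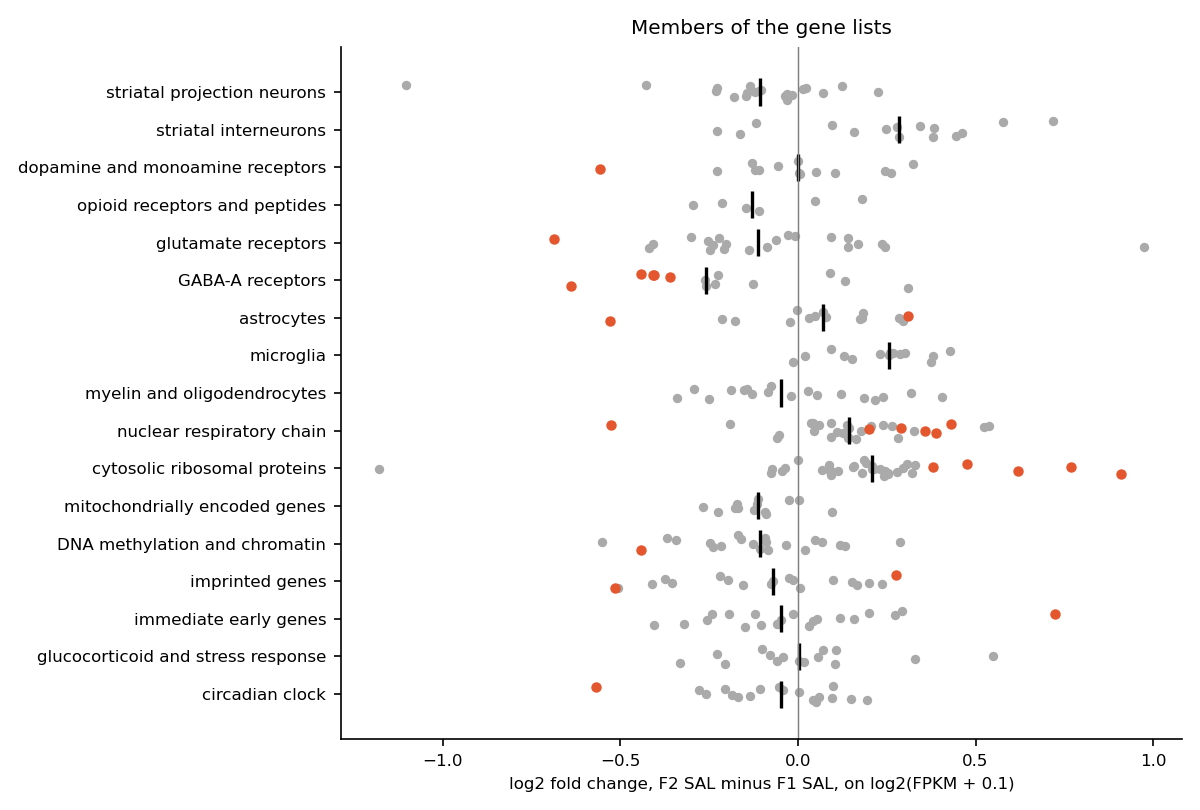
Log2 difference between F2 SAL and F1 SAL for each tested member of 17 gene lists, with 1 point per gene, red at an unadjusted p under 0.05, and a black bar at the median of the list. GABA-A receptors have 5 red points on the lower side (median -0.259), and ribosomal protein genes 5 on the higher side (median 0.208), while projection neuron markers have none.

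Across the autosomes, lower genes tended to be long in the genome and higher genes short. This was noticed after values were seen and is given as a description, with gene lengths (genomic span, introns included) taken from RefSeq for all 11708 autosomal genes. The genes were split by span into 5 bins of equal number. In the shortest bin, up to 8 kb, the median log2 difference was 0.133, and 10.7% of genes were higher at an unadjusted p under 0.05 against 0.897% lower. In the longest bin, from 76.5 kb, the median was -0.136, with 0.811% higher and 10.5% lower. The 3 bins between had medians of 0.0544, -0.01 and -0.0838, so the shift ran in order of length. The distance between the shortest and the longest bin was 0.268, and omitting any 1 library gave 0.218 to 0.343.

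Some of the lists above followed this gradient in part, and others had a median of the opposite sign to their bins. The 11 autosomal GABA-A receptor genes had a median span of 113 kb, and the medians of the bins in which they lay averaged -0.109, against -0.259 for the list. Between F2 and F1 of the other lineages these values were -0.141 and -0.433 in PNO, and -0.28 and -0.406 in IUO. Of the 33 autosomal ribosomal protein genes, 32 were in the shortest bin, and the mean of their bin medians was 0.13, against 0.209 for the list. For them these values were 0.0348 and 0.22 in PNO, and 0.148 and 0.257 in IUO. Of all genes in the shortest bin, 75.3% had a difference above 0 in saline and 10.7% were higher at an unadjusted p under 0.05. Of the 14 microglial genes 8 were in that bin, with saline values of 0.0754 and 0.257. For 29 respiratory chain genes the saline values were 0.099 and 0.144, and for 21 glutamate receptor genes with a position on an autosome -0.11 and -0.0885. Immediate early genes, with 15 of 21 in the shortest bin, had values of opposite sign, 0.0885 and -0.047. So did opioid receptors and peptides (0.059 and -0.129) and thalamus and habenula (-0.0235 and 0.266). Of 67 autosomal genes lower in F2 SAL by 1.5-fold or more at an unadjusted p under 0.05, 29 lay in the longest bin and 6 in the shortest, and of 53 that were higher 33 lay in the shortest and 2 in the longest. The 10 lower by the 2-fold rule were not long, with a median span of 23.9 kb against 24.6 kb for all autosomal genes. Of these 10, 4 lay in the shortest bin and 1 in the longest. Of the 7 higher by that rule, 6 lay in the shortest bin. The part of gene length in the differences of single genes was not tested.

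Library by library, the gradient was graded rather than a property of each pup of a generation. Relative to the mean of the 8, the shortest less the longest bin was at -0.274, -0.199, 0.0189 and -0.0731 in F1 SAL and at 0.136, 0.283, -0.0563 and 0.179 in F2 SAL. Only F1 SAL replicate 3 and F2 SAL replicate 3 lay on the other group's side, and the groups overlapped through them. The mean was -0.132 ± 0.13 in F1 SAL and 0.135 ± 0.142 in F2 SAL (SD, n = 4), with an exact permutation p of 0.0571, two-sided, over 70 splits. In IUO and PNO the measure was taken relative to the mean of all 24 libraries instead of the 8. It differed by 0.485 in IUO, where all 4 F2 libraries were above all 4 F1 libraries (exact permutation p = 0.0286, the smallest that 4 against 4 can give). In PNO it differed by 0.173 with overlap (exact permutation p = 0.571). Adjusted over these 3 comparisons, the p were 0.0857, 0.0857 and 0.571.

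**Figure D5:**
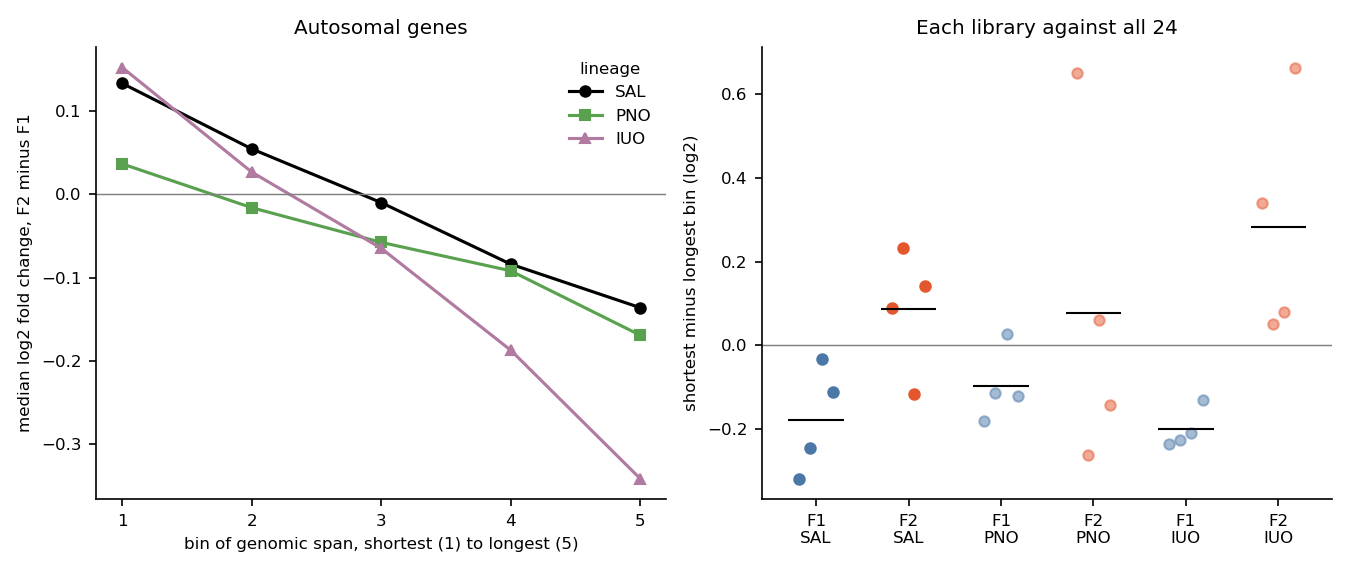
Left, median log2 difference between F2 and F1 of autosomal genes in 5 bins of genomic span, for the SAL, PNO and IUO lineages. Right, the shortest less the longest bin in each of the 24 libraries relative to the mean of all 24, blue for F1 and red for F2, with a bar at the group mean. The saline line falls from 0.133 to -0.136, and the 3 lineages slope the same way.

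The other lineages hold separate pups, so their generation differences could be set beside those of the saline arm. Between F2 and F1, 124 genes passed the 2-fold rule in PNO (0.905%) and 351 in IUO (2.56%), against 67 in SAL. Of the 67 autosomal genes lower in F2 SAL by the 1.5-fold rule (with 53 higher, 1.02% of autosomal genes), 82.1% had a difference below 0 in PNO and 88.1% in IUO, against 60.4% and 58.2% of all autosomal genes, and 66.9% and 69.0% of autosomal genes in the same bins of span. In IUO, 26 of the 67 were lower at an unadjusted p under 0.05 (background 11%), and in PNO none was (background 2.18%). The 53 higher genes were above 0 in 50.9% of cases in PNO and 67.9% in IUO, against 39.6% and 41.8% of all autosomal genes and 50.7% and 59.6% of those in the same bins of span, with 8 of the 53 at that p in IUO (background 6.11%).

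One gene passed the 1.5-fold rule in the same direction in all 3 lineages. RGD1562420, annotated as ribosomal protein L19, was at 103.56, 57.46, 69.88 and 57.36 FPKM in F1 SAL and at 3.48, 2.63, 51.69 and 60.24 FPKM in F2 SAL (exact permutation p = 0.0857, limma adjusted p = 0.527). In PNO it was at 52.54 to 132.96 FPKM in F1 and 0.73 to 1.85 FPKM in F2 (adjusted p = 0.000254), and in IUO at 1.59 to 43.33 FPKM in F1 and 1.02 to 2.37 FPKM in F2. Within F2 SAL, 2 libraries were thus low and 2 in or near the F1 SAL range. Tested directly, the saline generation difference departed from the mean of the other lineages in no gene at an adjusted p under 0.05 by limma, with 289 genes at an unadjusted p under 0.05 (2.11%). Besides Rn7sl1, the smallest p belonged to AABR07015081.1, Stard8, AABR07015080.2 and AABR07034657.1.

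Of the neuropeptide and marker genes followed by the study, 8 were tested and none had an unadjusted p under 0.05 by limma between the saline generations. Avp, the vasopressin precursor, was at 10.36, 5.8, 29.01 and 2.80 FPKM in F1 SAL and at 9.44, 3.43, 95.67 and 199.24 FPKM in F2 SAL, where 2 high libraries set a 6.42-fold higher mean with overlap (exact permutation p = 0.286). Oxt, the oxytocin precursor, was at 3.51, 8.42, 22.42 and 4.29 FPKM and at 5.41, 0.55, 45.18 and 56.91 FPKM, high in the same 2 F2 SAL libraries. Hcrt, the orexin precursor, was at 0.26 to 2.02 FPKM and 0.92 to 2.54 FPKM, and its receptor gene Hcrtr1 at 1.13 to 4.25 FPKM and 1.82 to 3.40 FPKM.

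Tcf7l2, a Wnt pathway transcription factor abundant in thalamus, was at 63.83, 36.96, 12.34 and 5.2 FPKM in F1 SAL and at 13.84, 5.91, 90.68 and 70.29 FPKM in F2 SAL, so each generation had 2 high and 2 low libraries. Otp, a hypothalamic homeobox gene, was at 0.50 to 2.61 FPKM and 0 to 5.08 FPKM, and Nptx2, a pentraxin of excitatory synapses, at 12.22 to 36.02 FPKM and 16.32 to 31.19 FPKM. The genes Pmch, Hcrtr2, Aqp1, Cdh1 and Agrp were under the level filter. Pmch, the melanin-concentrating hormone precursor, did not exceed 0.88 FPKM in any saline library, and Aqp1, a water channel of choroid plexus, was at 7.91 FPKM in F1 SAL replicate 1 and at most 0.82 FPKM in the other 7.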

How the data were processed

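Total RNA of P14 rat NAc was sequenced for 24 pups. The authors deposited 1 table of FPKM values per library, and per the labels the submitters' processing notes name HISAT2, SAMtools, StringTie and edgeR. The transcriptomes of all samples had been merged before quantification. The genome build is not given in the sources used here, so no coordinates are printed. Depth per library is unknown, and so is the counting error of a value.

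FPKM were not rescaled. F2 SAL was compared with F1 SAL by limma 3.58.1 in R 4.3.3 (lmFit, eBayes with a trend, two-sided) on log2(FPKM + 0.1) over 13706 genes with at least 1 FPKM in 4 or more of 8 libraries, with Benjamini-Hochberg adjustment over all of them. The fold of the 2-fold and 1.5-fold rules was the ratio of mean FPKM. PNO and IUO were fitted likewise on the same genes, and the difference of generation effects in 1 fit of 24 libraries. Single values were tested by exact permutation of 4 against 4 libraries (70 splits, smallest two-sided p 0.0286). Positions and spans came from matching names to the RefSeq table of assembly GRCr8. Samples were grouped by the letters and generation in their titles. The pups of a group came from separate litters per the series text. The fit was tested on simulated data, in which genes given no change also passed the 2-fold rule. Tables and plots used Python 3.11.15, pandas 2.3.3, numpy 2.4.6 and matplotlib 3.10.9.

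Genes were named by rule: up to 12 each way past the adjusted threshold, 10 each way of smallest p past the 2-fold rule without overlap, per list up to 4 members past the 1.5-fold rule or else the most abundant, every gene the study followed, genes past the 1.5-fold rule in all 3 lineages, and the 5 smallest p for the difference of generation effects. All autosomal genes past the 2-fold rule, all list members at an unadjusted p under 0.05 and the partner entries of the same protein were added after values were seen. The small RNA families were likewise chosen after values were seen. The members and the 34 gene lists were chosen with earlier results of these data known. Alternatives were a pseudocount of 1, other level filters, 2 rescalings, a fit of all 24 libraries, replicate blocks, a Y-linked covariate and leaving out each library. The Y-linked covariate in the fit of 24 was added after seeing the data. Some members of the lists are not reported here.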

Additional observations from a re-analysis of the deposited data

Results flagged for a closer look

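Of 179 groups of 4 saline libraries examined for named genes and marker sums, 19 (10.6%) held a library that stood far from the other 3. In these the gap to the nearest, as a share of the whole range, was above Dixon's 95% critical value. For independent, normally spread values chance gives about 1 in 20. The values were unlogged FPKM and some items shared a gene, such as Ttr and the choroid plexus sum, so that rate need not hold here. F1 SAL replicate 1 accounted for 6 of the 19 and F2 SAL replicate 3 for 4.

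In F1 SAL replicate 1 the high values were Ttr at 5121.2 FPKM, the choroid plexus sum at 5366.8 FPKM, Car12 at 7.03 FPKM and Vkorc1l1 at 6.42 FPKM. The same library was the only one of F1 SAL above 1 FPKM for RF02266, at 5.18 FPKM, and for AABR07039356.2, at 3.25 FPKM. F1 SAL replicate 2 had LOC108348055 at 0.05 FPKM, where the other 3 were listed at 0, and AABR07049821.1 at 0.5 FPKM. F1 SAL replicate 4 stood apart in the globin gene Hba-a2, at 56.0 FPKM, and in the blood sum, at 91.7 FPKM.

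In F2 SAL, replicate 3 had a choroid plexus sum of 106.63 FPKM with Ttr at 77.34 FPKM, and the lowest microglial values, C1qb at 39.05 FPKM and a sum of 236.65 FPKM. Replicate 1 had Zfp622 at 3.55 FPKM, with the other 3 listed at 0, and Hba-a2 at 20.98 FPKM. Replicate 2 had an ependymal sum of 92.23 FPKM. Replicate 4 had RGD1359290 at 41.29 FPKM, inside the F1 SAL range, and AABR07039356.2 at 9.54 FPKM.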

How the results depend on the processing

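The 67 genes past the 2-fold rule became 428 with no level filter, 249 with a filter of 0.1 FPKM, 252 at a 1.5-fold limit, 44 in a fit of all 24 libraries, 22 with the Y-linked level as a covariate in the 8 libraries and 24 with it in the 24, and ranged from 64 to 117 with 1 library left out (117 without F2 SAL replicate 3). The autosomal 17 became 158, 69, 120, 11, 7 and 7 under the same settings and ranged from 14 to 32. The 2 genes past the adjusted threshold became 0 in the fit of 24 libraries and with either covariate, 1 with the replicate block, and ranged from 2 to 4, the 4 without F1 SAL replicate 1 (the 3 without F2 SAL replicate 1 included 1 autosomal gene, Zfp622). The Y-linked covariate in the fit of 24 was chosen after seeing the data. A level filter of 0.1 FPKM or none tests more genes of low level; the other causes were not tested. A pseudocount of 1, upper-quartile and median-of-ratios rescaling left these counts within 1.5 times, and the counts for PNO, IUO and the difference of generation effects likewise. The split of the 1262 genes at an unadjusted p under 0.05 was 664 higher and 643 lower after median-of-ratios rescaling.

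Of 45 named genes at an unadjusted p under 0.05, 42 to 44 stayed there under another pseudocount, filter or rescaling, 39 with the replicate block, 31 in the fit of 24 libraries, 15 with the covariate in it, 8 with the covariate in the 8 libraries, and 32 to 39 with 1 library left out. With the covariate in the 8 libraries, where it is nearly the same as generation, the log2 difference changed sign in AABR07013802.1 (-0.0236), Mier3 (0.0448), LOC100366030 (2.45), Gria3 (1), Hspb1 (-0.348), Cox6a1 (-0.535), Rps2 (-0.482), Rps21 (-1.37), RGD1562420 (5.06), Mustn1 (-1.68) and Psors1c2 (-0.0858), and genes that had not been past that p reached it with the opposite sign in Cartpt (-1.95), Slc2a1 (1.47), Dynlrb2 (-2.7), Mt2A (-1.58) and Otp (8.67). In the 24 libraries it changed sign in LOC103693189 (0.178). The cause was not tested. Medians of 24 of the 32 gene lists moved by more than the spread between libraries with the covariate in the 8 libraries.

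The replicate numbers did not pair the libraries. Deviations of same-numbered F1 and F2 libraries correlated at -0.213, -0.229, -0.207 and -0.143, no library correlated best with its own number, and a replicate block gave 74 genes past the 2-fold rule, 16 of them autosomal. Read depth is unknown, so no limit of detection can be set for a value of 0, and low entries rest on an unknown number of fragments.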
